A study of Arabidopsis thaliana with 4 samples.

Results

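Genes whose promoter-side chromatin joined more genes in the *myc2* mutant of *Arabidopsis thaliana* than in wild-type Col-0 were described from H3K4me3 ChIA-PET data. In ChIA-PET, crosslinked chromatin is pulled down with an antibody, here against H3K4me3, nearby DNA ends are ligated, and each junction is counted as a paired-end tag (PET). A loop joins a pair of anchors, which are H3K4me3 peaks, and its PETs give its strength. Each anchor was given to 1 protein-coding gene, a node gene, and the distinct genes that loops join to a node gene are its connecting genes. A hub is a node gene with at least 5 connecting genes in either genotype. A hub counted as newly formed or increased when it had at least 5 connecting genes in *myc2*, at least 3 more than in Col-0, and when the difference was at least 0.3 of the number in *myc2*. This held for 281 of 7937 hubs, which is 3.54%, and of 14978 node genes it is 1.88%. The other 7656 hubs serve for comparison. The hubs were chosen by the measured counts of connecting genes in both genotypes, so every difference in that number is a description and was not tested.

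The samples were shoots of 2-week-old seedlings of *myc2* and of wild-type Col-0, both grown at 22 °C with 16 h of light and 8 h of dark and given no treatment other than crosslinking. The allele of the *myc2* mutant is not given in the sources used here. Chromatin of both genotypes was crosslinked with EGS and formaldehyde. Each genotype had 2 replicates, and the study states that it combined them for analysis. There is 1 list of loops per genotype, which is attached to replicate 1 alone and was taken as the combined data, and no difference has a replicate check. All intervals given are at the 95% level and reflect counting error alone. A loop between hubs is counted once at each of them, also across the compared groups of hubs. Intervals on links and PETs take no account of these repeats. At MYC2 (AT1G32640) itself, 1 of the anchors over the gene held 1423 tags in *myc2* and 3562 tags in Col-0, a ratio of 0.3995. The other held 1731 tags in *myc2* and 2479 tags in Col-0, a ratio of 0.698. Tags were not scaled for depth. Over the 14505 anchors with 300 tags or more in Col-0 and tags in both lists, the median ratio was 0.775. Of the shoot markers 9 of 9 had an overlapping anchor, and of the root markers 1 of 10.

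The lists differ in their number of PETs and in where they start. The *myc2* list holds 32312 loops with 297390 PETs and starts at 5 PETs, and the Col-0 list holds 36723 loops with 745505 PETs and starts at 10 PETs. A connecting gene gained in *myc2* is therefore one whose loop reached 5 PETs there and stayed at 9 PETs or fewer in Col-0, which can include no PET at all. This difference in minimum moves with every gain described here, and its part in single gains was not tested. A lost connecting gene is one whose loop reached 10 PETs in Col-0 and stayed below 5 PETs in *myc2*, so it may still hold PETs there. When loops in both lists had to hold 10 PETs, no hub met the rule, and when *myc2* loops had to hold 6 PETs, 29 of the 281 hubs did. The minimum of 10 PETs left 10344 loops in *myc2* against 36723 in Col-0. With fewer PETs in the *myc2* list, an equal minimum is the stricter one for *myc2* and leaves little room for gains.

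MYC2 is a basic helix-loop-helix transcription factor of the jasmonate pathway, which plants use in defence against insects and wounding and in growth. It binds the G-box, CACGTG, and both activates and represses genes. JAZ proteins hold it inactive until the hormone triggers their breakdown. H3K4me3 marks the start of transcribed genes, so the anchors of these loops lie mostly at promoters.

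The G-box was searched in the 300 bases from 250 before to 50 after the annotated start of each gene. The motif reads the same on both strands. It was found in 31 of 281 promoters of the newly formed or increased hubs (11.03%, 7.88 to 15.2%), in 9.57% of those of other hubs (8.94 to 10.2%), in 8.01% of those of the gained connecting genes and in 7.68% of all promoters. Among 48 hubs picked by rule for single description, 4 hold it, and they are shown because they carry the letters MYC2 is known to bind. Hubs named outside these 48 are not covered by this count. The sequences are from the RefSeq annotation of TAIR10.1, written 5′ to 3′ along the gene, with the G-box in capitals. A match is not a site of binding.
AT3G05700: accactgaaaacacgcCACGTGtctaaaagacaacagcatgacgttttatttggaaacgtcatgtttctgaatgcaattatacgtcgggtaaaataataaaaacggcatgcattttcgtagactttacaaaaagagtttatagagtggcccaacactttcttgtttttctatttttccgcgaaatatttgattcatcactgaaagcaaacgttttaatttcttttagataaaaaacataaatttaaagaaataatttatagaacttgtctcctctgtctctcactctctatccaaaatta
LHCB2.3: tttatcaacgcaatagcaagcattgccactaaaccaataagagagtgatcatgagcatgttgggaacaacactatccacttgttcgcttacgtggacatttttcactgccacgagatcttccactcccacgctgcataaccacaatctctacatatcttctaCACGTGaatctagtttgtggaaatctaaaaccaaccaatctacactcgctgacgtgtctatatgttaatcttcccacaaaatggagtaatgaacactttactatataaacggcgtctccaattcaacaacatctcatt
AT3G51370: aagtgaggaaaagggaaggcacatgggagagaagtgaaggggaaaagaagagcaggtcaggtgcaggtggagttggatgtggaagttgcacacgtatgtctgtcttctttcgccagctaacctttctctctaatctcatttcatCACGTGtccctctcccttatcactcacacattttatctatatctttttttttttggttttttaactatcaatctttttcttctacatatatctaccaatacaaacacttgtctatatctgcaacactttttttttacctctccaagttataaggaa
AOS: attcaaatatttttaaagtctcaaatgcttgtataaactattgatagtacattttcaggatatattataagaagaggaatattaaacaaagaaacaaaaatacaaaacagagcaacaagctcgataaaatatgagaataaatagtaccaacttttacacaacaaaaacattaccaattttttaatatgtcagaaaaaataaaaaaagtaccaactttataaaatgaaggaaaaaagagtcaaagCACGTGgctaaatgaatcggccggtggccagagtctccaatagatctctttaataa
The first lies at chr3:1684548-1684847 on the minus strand, LHCB2.3 at chr3:10255656-10255955 on the plus strand, AT3G51370 at chr3:19068877-19069176 on the plus strand and AOS at chr5:17099546-17099845 on the minus strand. The motif starts 234 bases before the gene start in AT3G05700, 88 bases before it in LHCB2.3, 106 bases before it in AT3G51370 and 6 bases before it in AOS.

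The hubs were of moderate size in *myc2*. Their median number of connecting genes was 7 in *myc2* (5 to 15) and 4 in Col-0 (1 to 10). In 168 of them (59.8%, 54.0 to 65.4%) Col-0 had fewer than 5 connecting genes, so the hub was newly formed, and 113 were already hubs in Col-0 and increased. The difference was 3 in 195 hubs, 4 in 63, 5 in 20 and 6 in 3. No hub began without a connecting gene in Col-0, and 6 began with 1, among them AT5G39670, PME5, MPK7 and HIR1. Most hubs added to what they had, since 186 kept every connecting gene of Col-0 and 95 lost 1 to 3. Just inside the thresholds, 39 hubs had 5 connecting genes in *myc2* and 2 in Col-0, CSLA10 among them. At the lowest share of 0.3 were 17 hubs, such as DRT112 with 10 in *myc2* and 7 in Col-0. Just outside, 596 hubs had gained 2, 18 genes reached 4 in *myc2*, and 25 had gained at least 3 but under 0.3 of their number, with IRX14 nearest at 14 in *myc2* and 10 in Col-0.

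**Figure D1:**
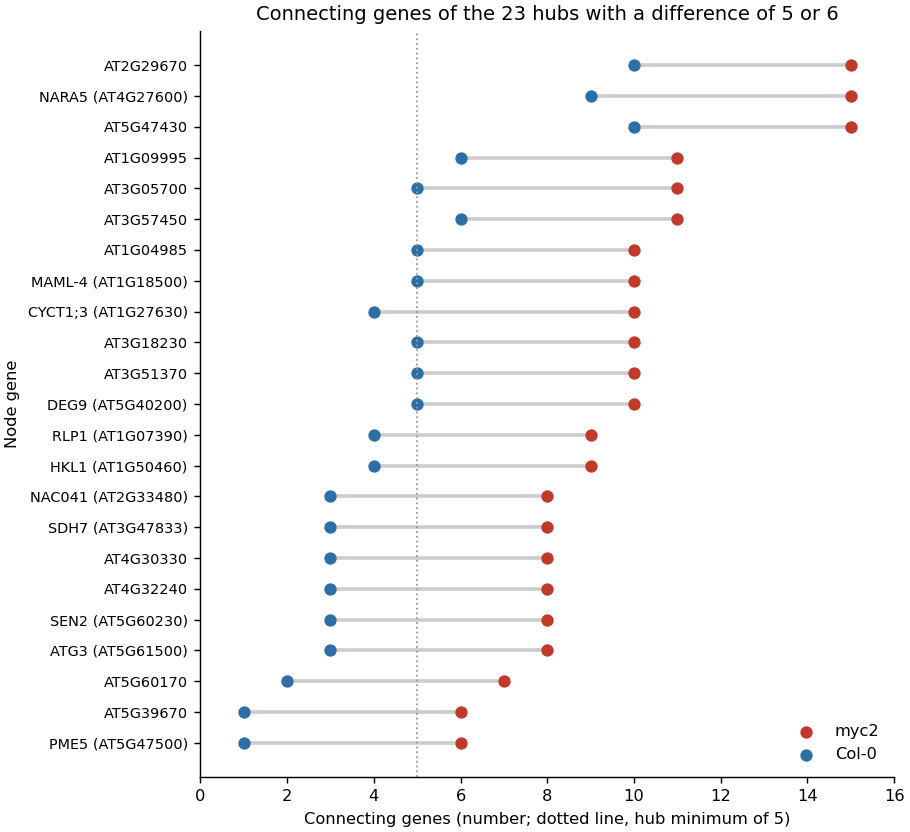
Number of connecting genes of each of the 23 hubs with a difference of 5 or 6, in *myc2* (red) and in Col-0 (blue), with a dotted line at the hub minimum of 5. NARA5, AT2G29670 and AT5G47430 reach 15 in *myc2*, and PME5 and AT5G39670 have 6 in *myc2* and 1 in Col-0.

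The hubs with the largest differences gained genes at several distances. NARA5 (AT4G27600), a pfkB-type sugar kinase family protein needed for photosynthetic gene expression in plastids, gained ENODL2, PRA1.H, PEL1, AT4G27657, VPS26B, CYP709B3 and ACBP2, each at 5 or 6 PETs in *myc2* and 22.96 to 63.3 kb away. Its 8 kept connecting genes held 76 PETs in *myc2* and 156 PETs in Col-0. The gained links of NARA5 thus lay at or next to the minimum of the *myc2* list, and the ratio over its kept links was 0.487, with PETs not scaled for depth. AT4G27657 and ACBP2, an acyl-CoA binding protein, were newly formed or increased hubs too, with 11 connecting genes in *myc2* against 7 in Col-0 for AT4G27657 and 7 in *myc2* against 3 in Col-0 for ACBP2.

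CYCT1;3 (AT1G27630) encodes a cyclin T, the kind of partner that activates the kinases which phosphorylate RNA polymerase II for elongation. It had 10 connecting genes in *myc2* and 4 in Col-0. Its gains were AT1G27700 at 8 PETs, TOM20-2 at 7 PETs and 96.3 kb, and EX2, AT1G27530 and AT1G27695 at 5 PETs each. It also gained PSRP5 on chromosome 3 and AGO10, an Argonaute of the shoot meristem, on chromosome 5, at 5 PETs each, and lost TAF4B, listed at 12 PETs in Col-0. AT3G05700, a drought-responsive family protein, had 11 connecting genes in *myc2* and 5 in Col-0 and lost none. Its strongest gains were AT3G05670 at 8 PETs and AT3G05830 at 7 PETs, and the farthest on its chromosome was SDP6 at 1532 kb and 5 PETs.

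Hubs with few connecting genes in Col-0 included genes of the cell wall, of calcium signalling and of autophagy. PME5, a pectin methylesterase, had 1 connecting gene in Col-0, AT5G47490, whose loop held 10 PETs in *myc2* and 29 PETs in Col-0. In *myc2* it also joined AT5G47430 at 9 PETs, TDT, the vacuolar malate transporter, at 7 PETs, RABA5a at 6 PETs, and AT5G47480 and ASG7 at 5 PETs each. AT5G39670, a calcium-binding EF-hand protein, joined EMB2745 at 12 PETs and 12.3 kb, and HB23, a homeobox gene, at 7 PETs in *myc2*. Its only Col-0 connecting gene was CDF2, with 12 PETs in *myc2* and 34 PETs in Col-0. ATG3, which conjugates ATG8 to lipid in autophagy, had 8 connecting genes in *myc2* and 3 in Col-0, with 34 PETs over its gained links (23.5 to 47.5).

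Other hubs with a difference of 5 came from varied processes. DEG9, a DegP protease, had 10 connecting genes in *myc2* and 5 in Col-0, and so did AT3G51370, a protein phosphatase 2C, whose gains VPS35C and RHD4 reached 8 PETs each. HKL1, a hexokinase-like protein, had 9 in *myc2* and 4 in Col-0, and 4 of its 6 gains were far off or on another chromosome, all at 5 PETs. RLP1, a receptor-like protein, also had 9 in *myc2* and 4 in Col-0. SDH7, a subunit of mitochondrial succinate dehydrogenase, and NAC041, a NAC transcription factor, each had 8 in *myc2* and 3 in Col-0. For NAC041 all 6 gained links held exactly 5 PETs, the lowest value the list can show.

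Several large hubs in *myc2* were already hubs in Col-0. AT2G29670, a tetratricopeptide repeat protein, had 15 connecting genes in *myc2* and 10 in Col-0, and its gains included UGT71C2, a glycosyltransferase, and AT2G29510 at 7 PETs each. AT5G47430, a zinc finger protein with a DWNN domain, also had 15 in *myc2* and 10 in Col-0, gained 7 and lost 2. Its gained links held 47 PETs (34.5 to 62.5), and its kept links held 100 PETs in *myc2* and 256 PETs in Col-0. AT2G44630, a kelch repeat protein, had 12 in *myc2* and 8 in Col-0. AT1G09995 and AT3G57450 each had 11 in *myc2* and 6 in Col-0. AT1G04985, annotated as lipase-like, and AT3G18230 each had 10 in *myc2* and 5 in Col-0, and AT3G18230 gained BTS, a ubiquitin ligase of the iron response, at 6 PETs. AT4G30330, a small nuclear ribonucleoprotein, and AT4G32240 were newly formed, each with 8 in *myc2* and 3 in Col-0, and AT4G30330 gained XTH24 and XTH18, enzymes of cell wall xyloglucan, at 5 PETs each.

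**Figure D2:**
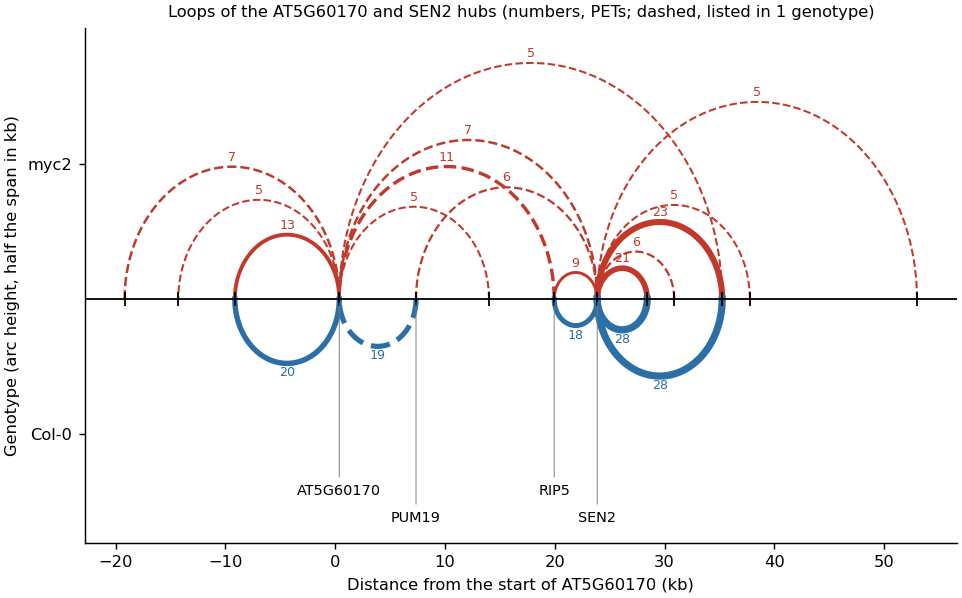
Loops of AT5G60170 and SEN2 in *myc2* (arcs above, red) and Col-0 (arcs below, blue) against distance in kb from the start of AT5G60170, with PETs beside each arc, line width rising with PETs, and dashes for loops listed in 1 genotype. Above the line 10 gained links spread out, while below it 4 kept links and the link to PUM19 at 19 PETs remain.

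A stretch of chromosome 5 held a pair of these hubs, and the stretch was chosen as an example after its values were seen. AT5G60170, an RNA-binding protein, had 7 connecting genes in *myc2* and 2 in Col-0, and SEN2 (AT5G60230), a subunit of the tRNA splicing endonuclease, had 8 in *myc2* and 3 in Col-0. In *myc2* AT5G60170 joined RIP5 at 11 PETs, TOE2, an AP2-type repressor of flowering, at 7 PETs, and SEN2 at 7 PETs. The loop of AT5G60170 to PUM19, an RNA-binding Pumilio protein, held 19 PETs in Col-0 and was not listed in *myc2*, where PUM19 was joined to SEN2 at 6 PETs. The Col-0 loops of PUM19 to TMO6 at 14 PETs and to RIP5 at 18 PETs were not listed in *myc2* either. AT5G60170 gained TMO6 at 5 PETs. Among the 16 node genes of the stretch 29 gene pairs were joined in *myc2* and 23 in Col-0, with 18 in both. The kept links of SEN2 held 53 PETs in *myc2* and 74 PETs in Col-0, a ratio of 0.716.

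Of the genes listed for jasmonate biosynthesis and for jasmonate signalling, 1 hub each met the rule. AOS (AT5G42650), allene oxide synthase, which opens the jasmonate branch of lipid oxidation, had 5 connecting genes in *myc2* and 2 in Col-0. It gained AT5G42620 at 9 PETs, ATS at 6 PETs and AT5G42765 at 5 PETs, and its kept links held 17 PETs in *myc2* and 62 PETs in Col-0. It was 1 of 10 hubs among 15 jasmonate biosynthesis genes, of which 5 had more connecting genes in *myc2* and 5 had fewer. AIB (AT2G46510), also called JAM1, a helix-loop-helix protein that counters MYC2, had 8 in *myc2* and 4 in Col-0. Its strongest gain was its neighbour SDH4 at 8 PETs and 2.37 kb. It was 1 of 12 hubs among 23 jasmonate signalling genes, of which 3 had more in *myc2*, 1 the same and 8 fewer. Over all hubs 26.2% had at least 1 more connecting gene in *myc2*, 56.5% had at least 1 fewer, and the median difference was -1.

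Lists for glucosinolates and leucine and for light harvesting also held 1 hub each that met the rule, of 10 and 14 hubs. MAML-4 (AT1G18500), also known as the isopropylmalate synthase IPMS1 of leucine synthesis, had 10 connecting genes in *myc2* and 5 in Col-0, and 1 of its 5 gains, at 5 PETs and 20.4 kb, was MYB51, a regulator of indole glucosinolates. LHCB2.3, a light-harvesting protein of photosystem II, had 5 in *myc2* and 2 in Col-0 with 3 gains of 5 PETs each. In the lists for abscisic acid signalling, the circadian clock and light signalling no hub met the rule. In *myc2* the number was lower at all 8 hubs in abscisic acid signalling, at 8 of 12 in light signalling and at 4 of 9 in the clock list. It was equal at 4 hubs in light signalling, and in the clock list it was equal at 3 and higher at 2. Among all hubs the share with fewer was 56.5%, and these splits were not tested. Over all lists 5 of 83 hubs met the rule (6.02%, 2.60 to 13.3%), against 3.54% of all hubs. This total includes a list of CDKC and CYCT elongation kinases, where CYCT1;3 was 1 of 3 hubs and the other 2 had fewer in *myc2*. It also includes the shoot and root markers, with 4 hubs and 1 hub, of which none met the rule.

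By annotation the hubs were spread over many protein families. The word kinase stood in the annotation of 24 (8.54%, 5.81 to 12.4%) and of 6.20% of other hubs. These included signalling kinases such as MPK3, with 9 connecting genes in *myc2* and 6 in Col-0, MPK7, with 5 in *myc2* and 1 in Col-0, and the calcium-dependent CPK1, with 12 in *myc2* and 8 in Col-0. The word also covers metabolic enzymes such as NADK2, an NAD kinase, with 7 in *myc2* and 4 in Col-0. The words ribosomal protein or ribosome stood in the annotation of 11 hubs (3.91%, 2.2 to 6.87%) and of 2.23% of other hubs, which leaves out ribosomal proteins worded otherwise, such as AT4G15000 and AT4G29410. Examples were AT5G20290 at 7 in *myc2* and 3 in Col-0 and RPS6 at 6 in *myc2* and 3 in Col-0. Hubs of transcription factors included TCP9, with 11 in *myc2* and 7 in Col-0, NAC017, a regulator of mitochondrial stress signalling, with 8 in *myc2* and 4 in Col-0, and PYE, a regulator of the iron deficiency response, with 6 in *myc2* and 3 in Col-0.

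**Figure D3:**
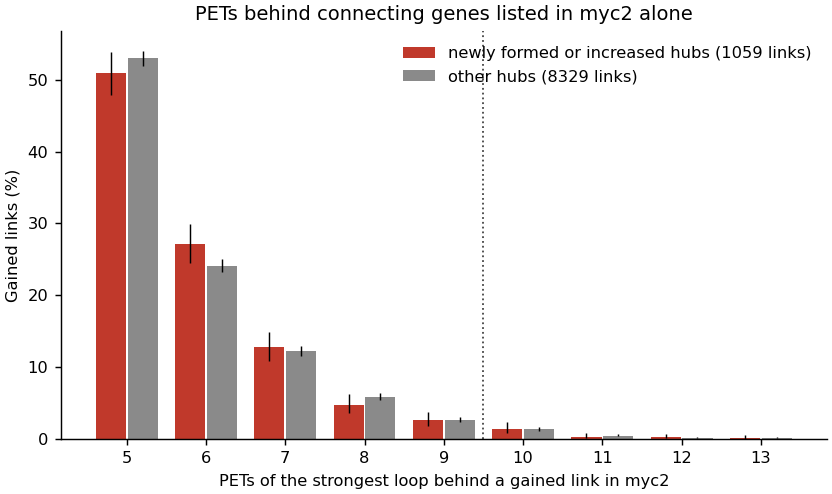
Share of gained links (percent) by the PETs of their strongest loop in *myc2*, for the newly formed or increased hubs (red, 1059 links) and for other hubs (grey, 8329 links), with 95% Wilson intervals. Of the red links 98.0% lie left of the dotted line, below the Col-0 minimum of 10 PETs. The axis ends at 13 PETs, the highest of the red links, and other hubs reach 67 PETs.

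Gained links were weak, with a median of 5 PETs in *myc2*, not scaled for depth. Over all loops in *myc2* the median was 7 PETs, and 10344 of 32312 loops held 10 PETs or more. Counted from each hub, the 281 hubs held 1059 gained links with 6241 PETs in *myc2*, which are 1024 distinct gene pairs. Of the 1059 links 50.9% (47.9 to 53.9%) stood at exactly 5 PETs. Under 10 PETs, where Col-0 lists nothing, lay 1038 of them (98.0%, 97.0 to 98.7%), and for other hubs the share was 97.9% (97.5 to 98.1%). The 21 at 10 PETs or more led with AT1G53780, a proteasome ATPase, to PME1 at 13 PETs (6.92 to 22.2), and emb2726, a plastid elongation factor Ts, to AT4G29120 at 12 PETs. BEH3, a relative of the brassinosteroid factor BES1, joined OFP5 at 11 PETs, and TLP18.3, a thylakoid lumen protein, joined AT1G54840 at 11 PETs. CRK joined IRX14 at 10 PETs across chromosomes. Over all genes 151 pairs were joined in *myc2* alone at 10 PETs or more, and 20 of them (13.2%, 8.74 to 19.6%) held at least 1 of these hubs. Of all *myc2* loops 6.65% touched 1 of these hubs. The hubs were chosen through links gained in *myc2*, so the rule itself raises their share of such pairs. The pair of AT2G30150 and AT2G30230 holds a hub at each end and counts among the 21 links from both.

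The 29 hubs that met the rule with at least 6 PETs in *myc2* included some of those named above. MAML-4 then had 8 connecting genes in *myc2* and 5 in Col-0, AIB and SDH4 each had 7 in *myc2* and 4 in Col-0, and SEN2 had 6 in *myc2* and 3 in Col-0. RLP1 had 8 in *myc2* and 4 in Col-0, emb2726 had 7 in *myc2* and 3 in Col-0, and HIR1, a membrane protein of plant immunity, had 5 in *myc2* and 1 in Col-0. In these 3 the difference was 4, and in the other 26 it was 3. NARA5, CYCT1;3, AT3G05700, AOS and LHCB2.3 were not among the 29. At 7 PETs in *myc2* AT1G08350, an endomembrane protein, had 8 in *myc2* and 5 in Col-0, and emb2726 had 6 in *myc2* and 3 in Col-0.

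Kept links held fewer PETs in *myc2*, in these hubs and in others. The 1080 links present in both lists held 11921 PETs in *myc2* and 27421 PETs in Col-0, a ratio of 0.435 (0.426 to 0.444), against 0.429 (0.428 to 0.431) for other hubs. Loops between hubs repeat in these sums. The kept links of other hubs sum to 902019 PETs in Col-0, above the 745505 PETs of its whole list. By span the ratio was 0.424 (0.413 to 0.436) under 10 kb, 0.444 (0.427 to 0.461) at 10 to 20 kb and 0.483 (0.449 to 0.520) at 20 kb or more in the newly formed or increased hubs. In other hubs it was 0.421, 0.433 and 0.468. A kept link holds at least 5 PETs in *myc2* and 10 PETs in Col-0, so a link weak in Col-0 is kept only at a high ratio. The rise with span was not separated from this limit. For Col-0 loops of 40 PETs or more, of which 2628 of 2631 were also listed in *myc2*, the ratio was 0.394. More PETs in *myc2* than in Col-0 were counted on 10 of the 1080 kept links (0.926%, 0.504 to 1.70%), against 0.683% (0.603 to 0.774%) in other hubs. Among the 10, the link between AT5G62930 and AT5G62950 is counted from each end. AT2G30230 held 16 PETs in *myc2* and 13 PETs in Col-0 to WRKY25, a ratio of 1.23 (0.601 to 2.52). CPK1 held 15 PETs in *myc2* and 11 PETs in Col-0 to AT5G04885, a ratio of 1.36 (0.638 to 2.92), and MPK3 held 16 PETs in *myc2* and 15 PETs in Col-0 to TET3. Each of these intervals spans 1.

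**Figure D4:**
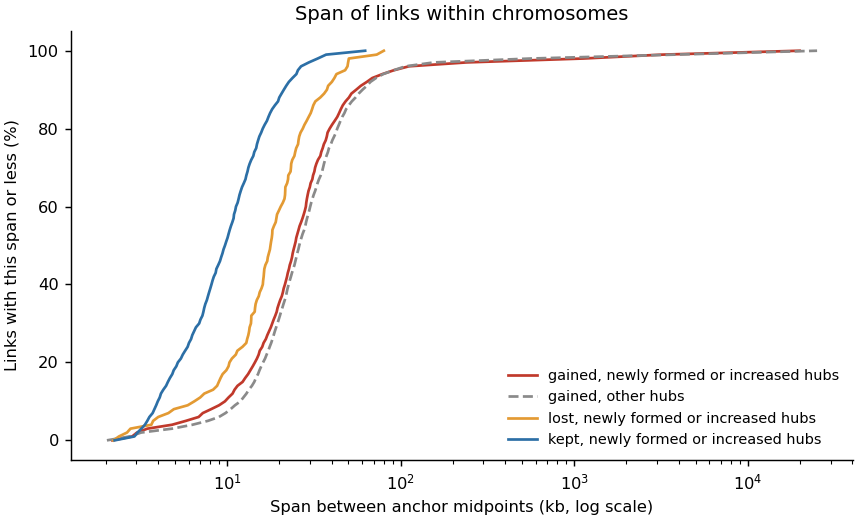
Cumulative share of links (percent) by span in kb on a log scale, for gained, lost and kept links of the newly formed or increased hubs and for gained links of other hubs (dashed). Gained links (median 24.5 kb) lie right of lost links (17.8 kb) and of kept links (9.72 kb), and close to the gained links of other hubs (26.04 kb).

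Gained links reached farther than kept ones, in these hubs and in others. A kept link holds at least 10 PETs in Col-0 and a gained link at most 9 PETs there. Links were thus sorted by PETs, and how far this sets their spans was not tested. Within chromosomes the median span was 24.5 kb for 999 gained links (quartiles 16.2 and 35.6 kb), 9.72 kb for kept links and 17.8 kb for the 104 lost links. In other hubs the medians were 26.04 kb for gained, 10.3 kb for kept and 18.5 kb for lost links. Spans of 40 kb or more made up 19.3% of gained links (16.99 to 21.9%) and 0.833% of kept links. A gained link passed over a median of 6 genes and a kept link over 2, and the next gene along was reached by 34 gained links and by 186 kept links. The gains lay about equally on either side of the hub, with 51.6% upstream (48.4 to 54.6%). Of gained partners 75.9% (73.1 to 78.4%) shared a connecting gene with the hub in Col-0, and for other hubs 82.3% did. A hub with more connecting genes in Col-0 has more ways to share one. The median in Col-0 was 4 in these hubs, which the rule favours, and 6 in other hubs. The shares were not matched for this.

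Links between chromosomes appeared in *myc2* alone, because the Col-0 list holds none, so they can only be gained. They made up 60 of 1059 gained links (5.67%, 4.43 to 7.23%) and belonged to 49 hubs, against 3.76% (3.37 to 4.19%) in other hubs. XBAT31 gained 3 such partners, AT1G04540, AT1G71080 and RPE, at 5 or 6 PETs. GOX1, glycolate oxidase of photorespiration, gained 3 at 5 PETs each, and its kept links, among them NCED3 of abscisic acid synthesis, held 226 PETs in *myc2* and 520 PETs in Col-0. PAF2, a proteasome subunit, and AT1G11060, a WAPL protein that in animals and plants releases cohesin from chromatin, each gained 2. With loops within chromosomes only, 242 hubs met the rule.

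Some hubs were joined to each other. By gained links 35 pairs of hubs were joined, of 1024 distinct gained gene pairs, which involved 63 of the 281 hubs. A gained link raises the count at both of its ends, so the rule that chose the hubs favours such pairs. No matching share was taken for other hubs, nor for neighbouring hubs. AT2G30150 and AT2G30230 were joined at 10 PETs over 22.4 kb. AT5G47430 and PME5 were joined at 9 PETs over 31.0 kb, and ABCB20, an ABC transporter, and UBC14, a ubiquitin-conjugating enzyme, at 8 PETs over 18.5 kb. AT3G01820 and SOX, sulfite oxidase, were joined at 8 PETs over 22.4 kb. The gained links led to 1024 distinct genes, and 33 of these were gained by 2 or 3 hubs. Neighbouring node genes were hubs of this kind in 8 places, always as 2 in a row, as AT1G02305 and AT1G02330. By chromosome the hubs were 2.95% of hubs on chromosome 1 (2.296 to 3.79%), 3.54% on chromosome 2, 3.72% on chromosome 3, 3.61% on chromosome 4 and 3.96% on chromosome 5 (3.17 to 4.93%).

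**Figure D5:**
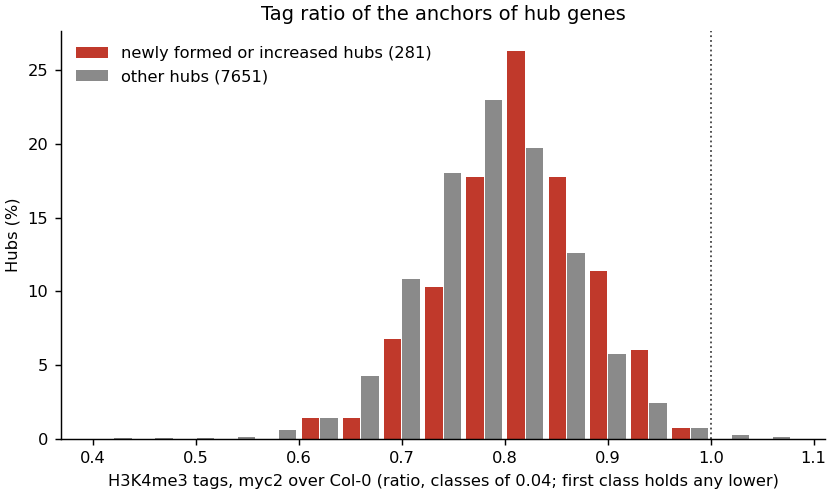
Share of hubs (percent) by the ratio of H3K4me3 tags in their anchors, *myc2* over Col-0, in classes of 0.04, for the newly formed or increased hubs (red, 281) and other hubs with tags (grey, 7651). The red bars centre on 0.816 and the grey bars on 0.786, and no red bar lies past 1.

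H3K4me3 tags at the anchors were fewer in *myc2* at all 281 hubs. The median was 1570 tags in *myc2* and 1920 tags in Col-0, and the tags were not scaled for depth. The median ratio was 0.816 (quartiles 0.774 and 0.861, lowest 0.613, highest 0.964). In other hubs it was 0.786 (quartiles 0.739 and 0.833), and 25 of 7651 lay above 1. The tags come from the same libraries as the loops that chose the hubs, so these ratios were not tested. The highest ratios belonged to AT4G32240, with 1746 tags in *myc2* and 1812 tags in Col-0, to BEH3, with 799 tags in *myc2* and 830 tags in Col-0, and to AT2G32600, with 1992 tags in *myc2* and 2079 tags in Col-0. The lowest belonged to DGK5, a diacylglycerol kinase, with 780 tags in *myc2* and 1273 tags in Col-0, to ETL1, with 792 tags in *myc2* and 1273 tags in Col-0, and to AT1G75960, with 1142 tags in *myc2* and 1797 tags in Col-0. DGK5 had 9 connecting genes in *myc2* and 6 in Col-0. Anchors were 0.97 kb wide at the median in these hubs and 1.02 kb in other hubs, and 4.98% (2.99 to 8.19%) of these hubs had 2 or more anchors, against 2.76% (2.41 to 3.15%) of other hubs.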

How the data were processed

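H3K4me3 ChIA-PET lists of *myc2* and Col-0 shoots were used, 1 list per genotype, taken as the combined data of 2 replicates, as the study's text states, although each list is attached to replicate 1 alone. The authors used ChIA-PET Tool V3 with TAIR10, anchors from merged H3K4me3 peaks, an FDR under 0.05 and a PET count set by depth. The aligner of the ChIA-PET reads is not given in the sources used here, and BWA-mem mapped the ChIP-seq reads behind the peaks. Each deposited list gives a count of PETs per loop and a count of tags per anchor, without scaling for depth. A p-value and an FDR per loop, with −log10 of each, and other columns for the distance and type of a loop were deposited by the authors as well.

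Genes came from the RefSeq annotation of TAIR10.1 (27444 nuclear protein-coding genes). An anchor went to the gene covering, with 1 kb upstream of its start included, at least 50% of it, taking the largest overlap and, at ties, the lower identifier, which gave 97.9% of 15694 anchors a gene. Shares have Wilson intervals, PET counts exact Poisson intervals, and ratios intervals from binomial shares. No p-value was computed between genotypes. The counting of connecting genes was tested on simulated data. Hubs, gene lists and described genes were chosen with earlier results of these data known. The 48 hubs picked by rule were those with differences of at least 5 and the list genes. They also included the extremes of connecting genes, PETs, links between chromosomes, tag ratio, joined pairs and neighbours. The stretch around AT5G60170 and SEN2, the hubs kept at stricter PET minimums and the examples of protein families were added after their values were seen. Alternatives changed the anchor's gene, PET minimum, FDR, loop type and thresholds. Scripts ran in Python 3.11.15 (scipy 1.17.1, numpy 2.4.6, matplotlib 3.10.9, pandas 2.3.3).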

Additional observations from a re-analysis of the deposited data

How the results depend on the processing

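The number of hubs depended most on the PET minimum. With 10 PETs in both genotypes only 10344 *myc2* loops remained against 36723 in Col-0, so that setting leaves little room for gains. It was 281 as reported, 0 with 10 PETs in both genotypes, 2 with 7 PETs in *myc2* (AT1G08350 and emb2726), and 528 when the Col-0 minimum was 11, which brings the lists nearest in number. Chosen after seeing the data, a *myc2* minimum of 6 PETs gave 29 and a Col-0 minimum of 12 PETs gave 887. It was 599 with every gene covering 50% of an anchor and 810 with every gene whose promoter overlaps it, and 254 and 230 of the 281 remained. It was 579 for a gain of at least 2, 86 for at least 4 and 125 for at least 0.5 of the number in *myc2*. The cause was not tested beyond what each setting changes. The share of gained links under 10 PETs was 83.3% at 7 PETs in *myc2* and 96.7% with the lists nearest in number. The median gained span was 26.3 kb by promoter, 31.1 kb at 7 PETs, 23.2 kb for a gain of 2 and 22.6 kb for 0.5. The median kept span was 8.77 kb at 7 PETs, 9.24 kb for a gain of 2 and 8.64 kb for 0.5. The median tag ratio was 0.807 under both other gene assignments, 0.877 at 7 PETs, 0.833 for a gain of 4 and 0.806 for 0.5, and the G-box share was 0% at 7 PETs, over 2 hubs. Of the 48 hubs picked by rule, 38 had fewer connecting genes in *myc2* with 10 PETs in both genotypes, with differences of -6, -5, -4, -3, -2 or -1. With 7 PETs in *myc2*, 20 of the 48 had fewer, with differences of -3, -2 or -1. An FDR under 0.001 left all 281. No paired analysis was possible because there is 1 list per genotype. The Col-0 minimum limits every gain. A link unlisted in Col-0 may hold up to 9 PETs there. A ratio of at least 0.556 is then all that a link of 5 PETs in *myc2* shows.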

Other observations

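Further values belong to no comparison above. Ferrochelatase FC1, an enzyme of haem synthesis, had 5 connecting genes in *myc2* and 2 in Col-0, and SRR1, a gene of light signalling and the clock, had 7 in *myc2* and 4 in Col-0. KEG, a ubiquitin ligase that restrains abscisic acid signalling, had 9 in *myc2* and 6 in Col-0. VTE5, the phytol kinase of tocopherol synthesis, had 5 in *myc2* and 2 in Col-0. These were picked after their values were seen.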
